A study of Mus musculus with 6 samples.

Results

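Wnt signalling was described through 50 genes that encode its ligands, receptors, inhibitors and effectors, of 17006 genes in each table. They were taken by gene symbol: every symbol of the Wnt, Frizzled (Fzd), secreted Frizzled-related protein (Sfrp) and Dickkopf (Dkk) series, and 20 further genes of the pathway. The cells were neural stem cells in primary culture, isolated from the subventricular zone, a stem cell niche that lines the lateral ventricles of the brain. They came from C57BL/6 mice that were aged (15 to 18 months, 3 libraries) or young (2 months, 3 libraries), with no transgene or treatment named for either age. Each isolation pooled the tissue of 5 mice, and RNA for bulk sequencing was taken after growth in proliferation medium, so the values are those of cultured cells. Nothing in the labels says that the libraries of an age came from separate isolations, and the p-values then measure only the spread between these libraries.

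In the canonical branch of the pathway, secreted Wnt proteins bind a Frizzled receptor together with the co-receptor LRP5 or LRP6, and this stops a destruction complex of Axin, APC and GSK3 from marking beta-catenin for degradation. Beta-catenin then acts in the nucleus with TCF and LEF factors, whose targets include feedback inhibitors such as Axin2, Nkd1 and Znrf3. Other Wnt proteins, Wnt5a among them, act mostly without beta-catenin, on cell polarity and movement. In the subventricular zone, Wnt signals are known for their part in the self-renewal and differentiation of stem cells.

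Levels are FPKM (fragments per kilobase of transcript, relative to the library's total), which allow levels of different genes to be set side by side. Of the 50 members, 32 had a mean of at least 1 FPKM over the 6 libraries and were tested, and 18 lay under that filter. Read steps in low values put each library at about 5300000 to 5480000 counted reads. Beside the labelled cell type, the levels of 9 genes of neural stem and progenitor cells were read (Nes, Sox2, Fabp7, Vim, Pax6, Prom1, Egfr, Slc1a3 and Msi1). These levels do not by themselves name the cells. All 9 passed the filter, with a summed level of 4965 to 5143 FPKM in aged libraries and 5049 to 5214 FPKM in young libraries. Fabp7 and Vim made up most of that sum, and 0 of the 9 passed limma at an adjusted p under 0.05. Aged and young values did not overlap for 5 of the 9, where 17.6% of all 11912 genes tested did not overlap. Vim, Nes and Pax6 had means of 1532, 260.5 and 8.09 FPKM in aged and 1659, 273.0 and 9.87 FPKM in young libraries. Sox2 and Slc1a3 had means of 181.7 and 199.5 FPKM in aged and 170.6 and 191.9 FPKM in young libraries. At an unadjusted limma p under 0.05, 3 of the 9 were lower in aged libraries (Vim, Nes and Pax6) and 1 higher (Sox2). Of all genes tested, 11.9% lay under that limit. Vim came nearest to the threshold (limma adjusted p = 0.0608).

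The single comparison of the design, aged against young, asks how the transcripts of these cells differ with the age of the mice. Of the 32 members tested, 0 passed limma at an adjusted p under 0.05, where 0.722% of all 11912 genes tested passed. At an unadjusted p under 0.05 there were 4 members (12.5%), Fzd10, Wnt5a and Apc lower and Nkd1 higher in aged libraries, where 11.9% of all genes tested lay under that limit (6.3% higher and 5.55% lower). Apc was at that limit, and lay under it in 3 of 10 other settings and in 1 of 6 fits with 1 library left out. Aged and young values did not overlap for 6 of the 32 members (18.8%), which adds Znrf3, lower in aged libraries, and Ctnnb1, higher in them, where 17.6% of all genes tested did not overlap (8.98% higher and 8.58% lower). Both shares of the members are near those of all genes. The median log2 change of the 32 members, aged over young on the scale of FPKM + 1, was -0.0055, with 15 higher and 17 lower in aged libraries, beside 0.0027 for all genes tested. In bulk libraries a lower level can mean fewer cells of a type or less RNA per cell, and these cannot be told apart.

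**Figure D1:**
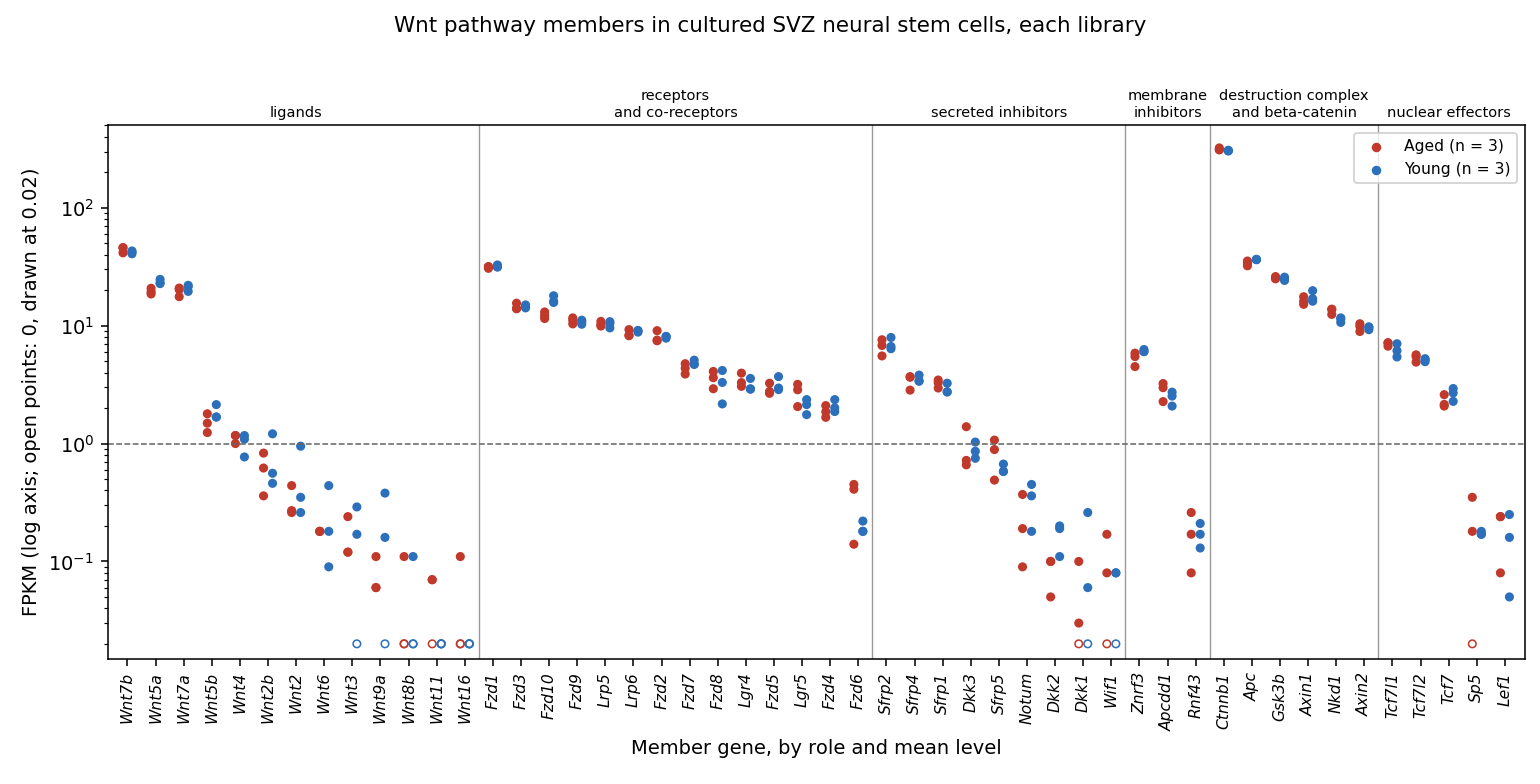
Level of each of the 50 members in each library (FPKM, log axis), ordered by role and by mean level, with aged libraries in red left of young libraries in blue. Values of 0 are drawn as open points at 0.02, and the dashed line marks the filter at 1 FPKM. Points of both ages lie close together for most members, and 18 members have a mean under the line.

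Among 13 Wnt ligands, 3 made up nearly all of the measured ligand RNA. Wnt7b, Wnt5a and Wnt7a together held 95.2%, 95.5% and 95.4% of the summed ligand FPKM in aged libraries and 94.6%, 94.5% and 95.4% in young libraries. The summed level of all 13 ligands was 85.3 to 91.6 FPKM in aged and 89.8 to 94.1 FPKM in young libraries.

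Wnt7b (gene 22422, chromosome 15, 85535437 to 85581821 in mm10), a ligand of the canonical branch, was the most abundant. It had 41.5, 45.9 and 45.9 FPKM in aged libraries, against 40.8, 42.2 and 43.0 FPKM in young libraries, and the ranges overlapped. Its log2 change was 0.08 (95% interval -0.039 to 0.20; limma adjusted p = 0.631).

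Wnt5a (gene 22418, chromosome 14, 28504543 to 28527448), the ligand best known for signalling without beta-catenin, was lower in every aged library. It had 19.4, 20.8 and 18.6 FPKM in aged libraries, against 22.8, 24.7 and 23.2 FPKM in young libraries. The highest aged value lay under the lowest young value. The aged mean of 19.6 ± 1.10 FPKM was 83.2% of the young mean of 23.5 ± 1.03 FPKM (SD, n = 3 each). On the log2 scale this was -0.25 ± 0.06 (SE; limma unadjusted p = 0.00245, adjusted p = 0.130), which did not pass. Wnt5a made up 22.3% ± 0.67 of the summed ligand FPKM in aged and 25.8% ± 0.46 in young libraries (SD, n = 3 each). Exons of Wnt5a overlap the antisense gene Gm2670 in the GENCODE annotation. Since the strand setting of the counting is not given in the sources used here, reads of the pair cannot be told apart, and the same holds for Wnt7b and its antisense neighbour AU022754.

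Wnt7a, a ligand close in sequence to Wnt7b, had 20.2, 20.9 and 17.6 FPKM in aged libraries, against 21.5, 22.0 and 19.6 FPKM in young libraries. These ranges overlapped (log2 change -0.099, limma adjusted p = 0.686). Of the remaining ligands, Wnt5b had means of 1.51 FPKM in aged and 1.83 FPKM in young libraries, and Wnt4 had means of 1.11 FPKM in aged and 1.01 FPKM in young libraries. Both overlapped between the ages.

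The other 8 ligands lay under the filter. Wnt2b ranged from 0.36 to 0.83 FPKM in aged and from 0.46 to 1.21 FPKM in young libraries, about 6.4 to 22.0 estimated reads over all 6. Wnt2 had 0.26, 0.27 and 0.44 FPKM in aged libraries, against 0.95, 0.26 and 0.35 FPKM in young libraries, so that a single young library stood above the other 5. Wnt6 reached 0.18 FPKM in aged and 0.44 FPKM in young libraries, and Wnt9a reached 0.11 FPKM in aged and 0.38 FPKM in young libraries. Wnt3, Wnt8b, Wnt11 and Wnt16 stayed at 0.29 FPKM or less, and Wnt11 and Wnt16 were listed at 0 in all 3 young libraries. A value of 0.07 FPKM for Wnt11 or 0.11 FPKM for Wnt16 amounts to about 1 read, so these ligands could not be compared at this depth.

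Receptors and co-receptors were broadly expressed, with 13 of 14 above the filter. All 10 Frizzled genes of the rule had reads, led by Fzd1, Fzd3 and Fzd10, and their summed level was 87.7 to 91.8 FPKM in aged and 94.0 to 96.4 FPKM in young libraries. Within that sum Fzd10 had means of 12.3 FPKM in aged and 16.6 FPKM in young libraries. Means of Fzd1, Fzd3, Fzd9 and Fzd2 were nearly equal between the ages. Those of Fzd7, Fzd5 and Fzd4 were lower in aged libraries by less than Fzd10, and those of Fzd8 and Fzd6 higher.

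Fzd10 (gene 93897, chromosome 5, 128601106 to 128604093), which encodes a Frizzled receptor, differed most between the ages among the 32 members. It had 13.1, 11.5 and 12.2 FPKM in aged libraries, against 16.1, 15.7 and 18.0 FPKM in young libraries. All 3 aged values lay under all 3 young values. The aged mean of 12.3 ± 0.79 FPKM was 73.9% of the young mean of 16.6 ± 1.18 FPKM (SD, n = 3 each), or about 212 against 295 estimated reads per library. On the log2 scale this was -0.41 ± 0.07 (SE, 95% interval -0.57 to -0.24; limma unadjusted p = 0.000405, adjusted p = 0.0513), just outside the threshold. The adjusted p ran from 0.0346 to 0.157 over the alternatives, passing in 4 of them, and was 0.0805 to 0.157 when 1 library was left out. Within the Frizzled family, Fzd10 held 14.2%, 12.7% and 13.9% of the summed FPKM in aged libraries, against 16.7%, 16.7% and 18.8% in young libraries. No exon of Fzd10 overlaps another gene in the annotation.

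The promoter of Fzd10 is shown because this receptor had the largest difference, beside those of Fzd1, the most abundant Frizzled gene, and Sp5, a known target of beta-catenin that these cells hardly expressed. Sequences are from RefSeq (GRCm38.p6, the mm10 assembly), 250 bases before to 50 bases after the start, 5′ to 3′ on the strand of the gene, at chr5:128600856-128601155 (plus strand) for Fzd10, chr5:4758167-4758466 (minus strand) for Fzd1 and chr2:70474673-70474972 (plus strand) for Sp5. Capitals mark CTTTGA, a form of the core of the TCF and LEF binding motif, or its reverse complement TCAAAG. Other forms, such as CTTTGT, were not searched and are left unmarked.
Fzd10: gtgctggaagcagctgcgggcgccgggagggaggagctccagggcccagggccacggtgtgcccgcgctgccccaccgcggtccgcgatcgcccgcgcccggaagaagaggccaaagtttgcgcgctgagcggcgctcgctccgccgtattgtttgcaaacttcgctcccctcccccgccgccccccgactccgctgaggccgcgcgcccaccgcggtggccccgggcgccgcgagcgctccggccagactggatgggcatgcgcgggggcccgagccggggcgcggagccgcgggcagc
Fzd1: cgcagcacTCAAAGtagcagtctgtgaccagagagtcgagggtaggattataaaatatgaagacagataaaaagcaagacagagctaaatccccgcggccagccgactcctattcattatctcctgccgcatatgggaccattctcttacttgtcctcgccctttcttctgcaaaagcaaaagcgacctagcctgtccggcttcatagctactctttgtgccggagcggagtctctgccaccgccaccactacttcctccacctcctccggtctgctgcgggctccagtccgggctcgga
Sp5: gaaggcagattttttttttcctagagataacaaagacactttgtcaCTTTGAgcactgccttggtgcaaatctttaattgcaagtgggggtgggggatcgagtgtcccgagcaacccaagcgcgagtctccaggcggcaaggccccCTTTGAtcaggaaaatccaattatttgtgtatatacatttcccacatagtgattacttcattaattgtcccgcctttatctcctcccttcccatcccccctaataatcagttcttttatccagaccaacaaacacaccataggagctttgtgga
The Fzd10 window is 77.7% G or C and holds no match, the Fzd1 window holds 1 and the Sp5 window holds 2. The promoter table held 33 of the 50 members with 43 promoters, of which 7 (16.3%) had a match on either strand, in Sp5, Lef1, Fzd1, Wnt5b, Wnt11, Gsk3b and Dkk1. Among all 32851 promoters of the same length, 16.0% had one. A match is only a run of letters, and its absence says nothing beyond this window.

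Fzd1, the most abundant receptor, had 31.7, 31.7 and 30.7 FPKM in aged libraries, against 32.7, 31.4 and 31.7 FPKM in young libraries. Its values overlapped and its interval was narrow (log2 change -0.027, 95% interval -0.13 to 0.073; limma adjusted p = 0.878). Fzd3, a receptor known from axon guidance and planar polarity, had 13.9, 15.5 and 14.0 FPKM in aged libraries, against 15.0, 14.2 and 14.5 FPKM in young libraries, with a limma adjusted p of 0.980. Fzd9 and Fzd2 had means of 11.0 and 8.02 FPKM in aged libraries and 10.7 and 8.02 FPKM in young libraries. Fzd7, Fzd8, Fzd5 and Fzd4 had means between 1.88 and 4.34 FPKM in aged and between 2.08 and 4.84 FPKM in young libraries, and all overlapped between the ages. Fzd8 had 4.09, 3.62 and 2.92 FPKM in aged libraries, against 4.17, 3.30 and 2.17 FPKM in young libraries, a wide spread inside both ages (log2 change 0.13, 95% interval -0.29 to 0.55; limma adjusted p = 0.854). Fzd6 lay under the filter, at 0.14 to 0.45 FPKM in aged and 0.18 to 0.22 FPKM in young libraries.

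The co-receptors Lrp5 and Lrp6, which Wnt proteins bring together with a Frizzled receptor, did not differ beyond their spread. Lrp5 had means of 10.3 ± 0.49 FPKM in aged and 10.3 ± 0.64 FPKM in young libraries, and Lrp6 had means of 8.60 ± 0.58 FPKM in aged and 8.99 ± 0.15 FPKM in young libraries (SD, n = 3 each). Lgr4 and Lgr5 encode receptors of R-spondins, which strengthen Wnt signals. Lgr4 had means of 3.44 FPKM in aged and 3.13 FPKM in young libraries. Lgr5 had 2.86, 3.18 and 2.06 FPKM in aged libraries, against 2.14, 2.36 and 1.76 FPKM in young libraries. The ranges of Lgr5 overlapped. Of the 32 intervals, only that of Lgr5 reached past a 1.5-fold change of FPKM + 1 (log2 change 0.25, 95% interval -0.087 to 0.60, limma adjusted p = 0.578).

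**Figure D2:**
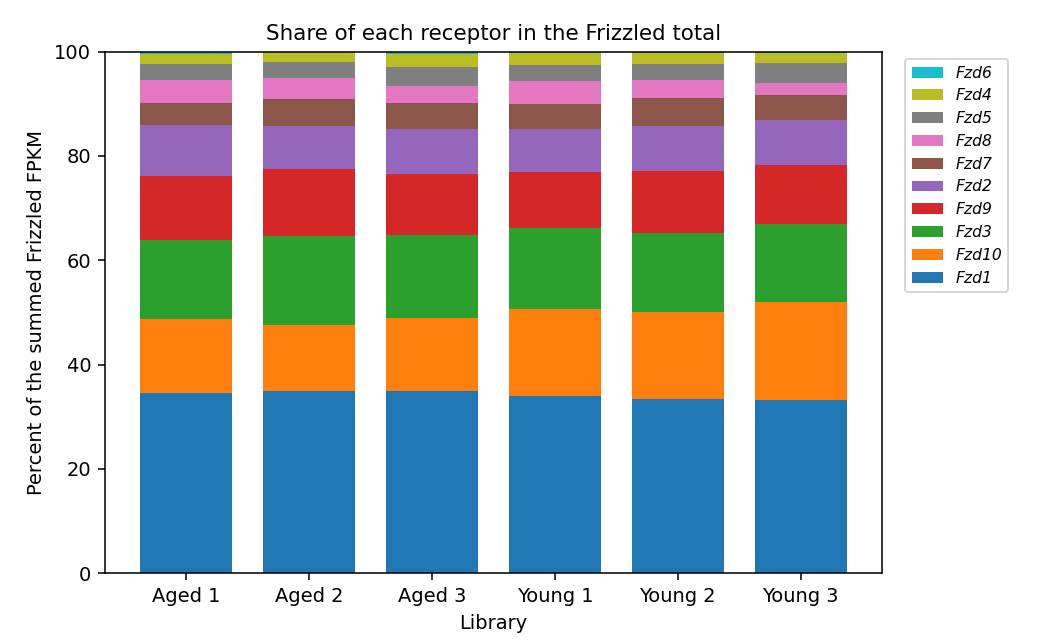
Share of each Frizzled gene in the summed Frizzled FPKM (percent), 1 bar per library, aged left of young. The Fzd10 segment spans 12.7% to 14.2% in aged libraries and 16.7% to 18.8% in young libraries, while Fzd1 holds 34.5% to 35.0% in aged libraries and 33.1% to 34.0% in young libraries. A share also moves with the sum it is taken from. The FPKM of Fzd1 itself overlapped between the ages, with means of 31.3 FPKM in aged and 31.9 FPKM in young libraries.

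Secreted inhibitors were low, and none of the 3 tested moved beyond its spread. Sfrp2, which binds Wnt proteins outside the cell, had 6.80, 5.54 and 7.60 FPKM in aged libraries, against 6.66, 6.38 and 7.95 FPKM in young libraries (limma adjusted p = 0.887). Sfrp4 had 2.84, 3.70 and 3.65 FPKM in aged libraries, against 3.39, 3.39 and 3.81 FPKM in young libraries (limma adjusted p = 0.921). Sfrp1 had 3.29, 2.96 and 3.46 FPKM in aged libraries, against 3.25, 2.74 and 2.75 FPKM in young libraries (limma adjusted p = 0.757). In all 3 genes the ranges overlapped.

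The other 6 secreted inhibitors lay under the filter. Dkk3, a divergent Dickkopf, ranged from 0.66 to 1.39 FPKM in aged and from 0.75 to 1.03 FPKM in young libraries. Sfrp5 ranged from 0.49 to 1.07 FPKM in aged and from 0.58 to 0.67 FPKM in young libraries. Notum, an enzyme that removes the lipid Wnt proteins need, ranged from 0.09 to 0.37 FPKM in aged and from 0.18 to 0.45 FPKM in young libraries. Dkk1 and Dkk2, which block LRP5 and LRP6, and Wif1, which binds Wnt proteins, stayed at 0.26 FPKM or less in all 6 libraries. Dkk2 had 0.05, 0.10 and 0.10 FPKM in aged libraries, against 0.11, 0.20 and 0.19 FPKM in young libraries. These ranges did not overlap, but they rest on about 0.99 to 4.06 estimated reads per library, and Dkk2 was not tested.

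Of the inhibitors in the cell membrane, Znrf3 encodes a ubiquitin ligase that removes Frizzled receptors from the surface. It had 5.47, 5.85 and 4.50 FPKM in aged libraries, against 6.02, 6.04 and 6.28 FPKM in young libraries. The groups did not overlap, but the aged libraries spread more widely than the young (log2 change -0.19, 95% interval -0.41 to 0.038; limma unadjusted p = 0.0923, adjusted p = 0.520). Apcdd1, which binds Wnt and LRP proteins, had means of 2.83 FPKM in aged and 2.45 FPKM in young libraries, and overlapped. Rnf43, a gene related to Znrf3, was at 0.08 to 0.26 FPKM in aged and 0.13 to 0.21 FPKM in young libraries.

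**Figure D3:**
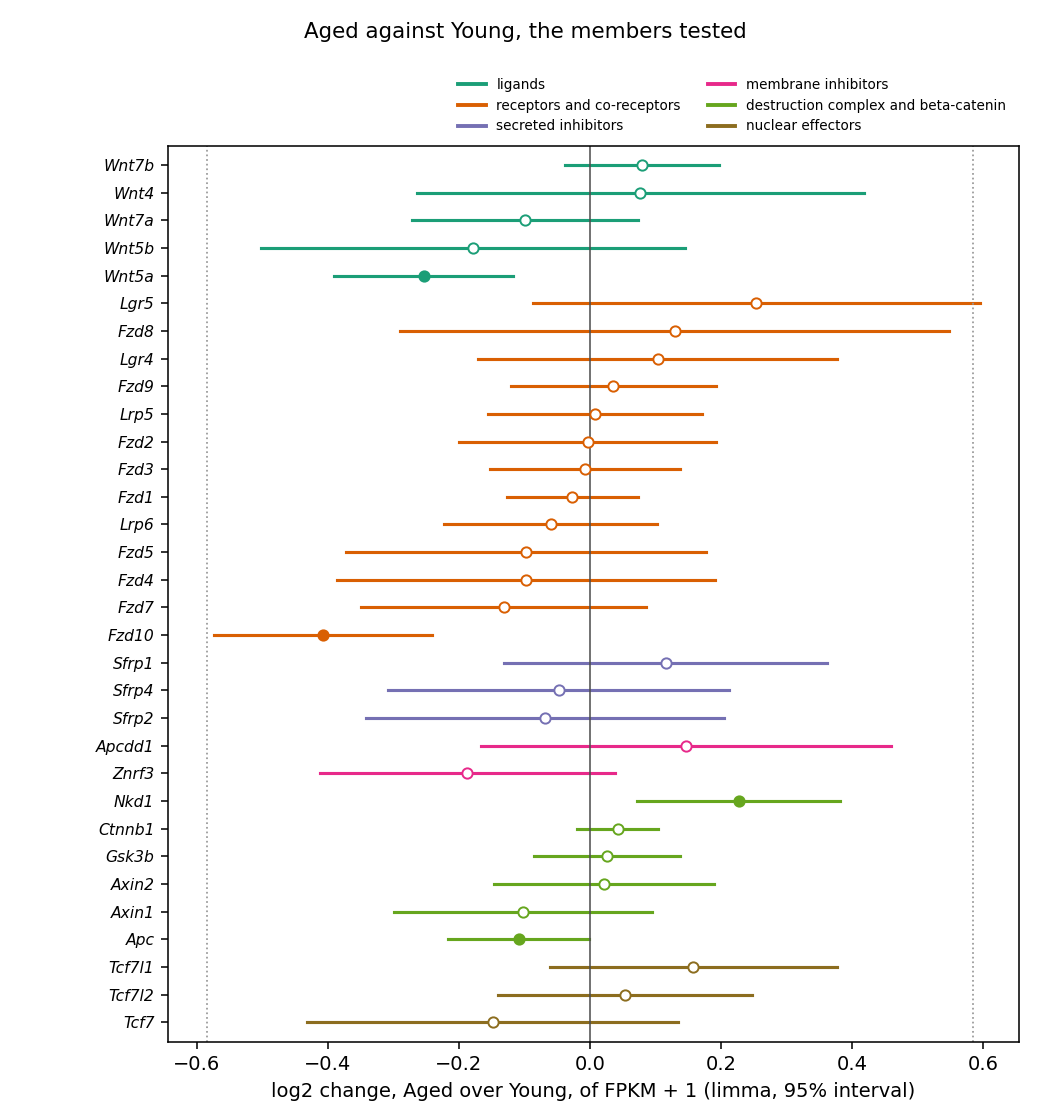
Log2 change of each of the 32 tested members, aged over young on the scale of FPKM + 1, with its 95% interval from limma, grouped by role. Filled points have an unadjusted p under 0.05, and dotted lines mark a 1.5-fold change. Fzd10 and Wnt5a lie to the left of 0 and Nkd1 to the right with intervals clear of it, and the interval of Apc ends at 0.

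All 6 genes of the destruction complex, beta-catenin and its feedback were tested. Ctnnb1, which encodes beta-catenin, ranked 213th by mean level among the 17006 genes. It had 311.3, 322.3 and 310.6 FPKM in aged libraries, against 304.9, 307.8 and 303.7 FPKM in young libraries. The groups did not overlap, yet the means differed by little (314.7 ± 6.56 FPKM in aged and 305.5 ± 2.11 FPKM in young libraries; SD, n = 3 each) and the change did not pass (log2 change 0.043, 95% interval -0.019 to 0.10; limma adjusted p = 0.618).

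Apc, which encodes a part of the destruction complex, had 33.6, 35.4 and 32.2 FPKM in aged libraries, against 36.4, 36.6 and 36.3 FPKM in young libraries. The aged values were all lower and more spread (log2 change -0.11 ± 0.05 (SE); limma unadjusted p = 0.0486, adjusted p = 0.420). Gsk3b, the kinase that marks beta-catenin, had means of 25.5 FPKM in aged and 25.0 FPKM in young libraries, and Axin1 had means of 16.3 FPKM in aged and 17.6 FPKM in young libraries, both overlapping.

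Axin2 and Nkd1 are feedback inhibitors that beta-catenin induces in many tissues, and they differed in what they showed. Nkd1 (gene 93960, chromosome 8, 88521342 to 88594887), an antagonist of Dishevelled, had 13.8, 12.5 and 13.7 FPKM in aged libraries, against 11.7, 11.4 and 10.7 FPKM in young libraries. All 3 aged values lay above all 3 young values. The aged mean of 13.3 ± 0.76 FPKM was 118.6% of the young mean of 11.2 ± 0.52 FPKM (SD, n = 3 each). On the log2 scale this was 0.23 ± 0.07 (SE; limma unadjusted p = 0.00914, adjusted p = 0.226), which did not pass. Axin2 had 9.88, 10.4 and 8.93 FPKM in aged libraries, against 9.25, 9.79 and 9.64 FPKM in young libraries. The young range of Axin2 lay inside the aged range, and its log2 change was 0.021 (95% interval -0.15 to 0.19; limma adjusted p = 0.944). The difference between the changes of Nkd1 and Axin2 was not tested.

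**Figure D4:**
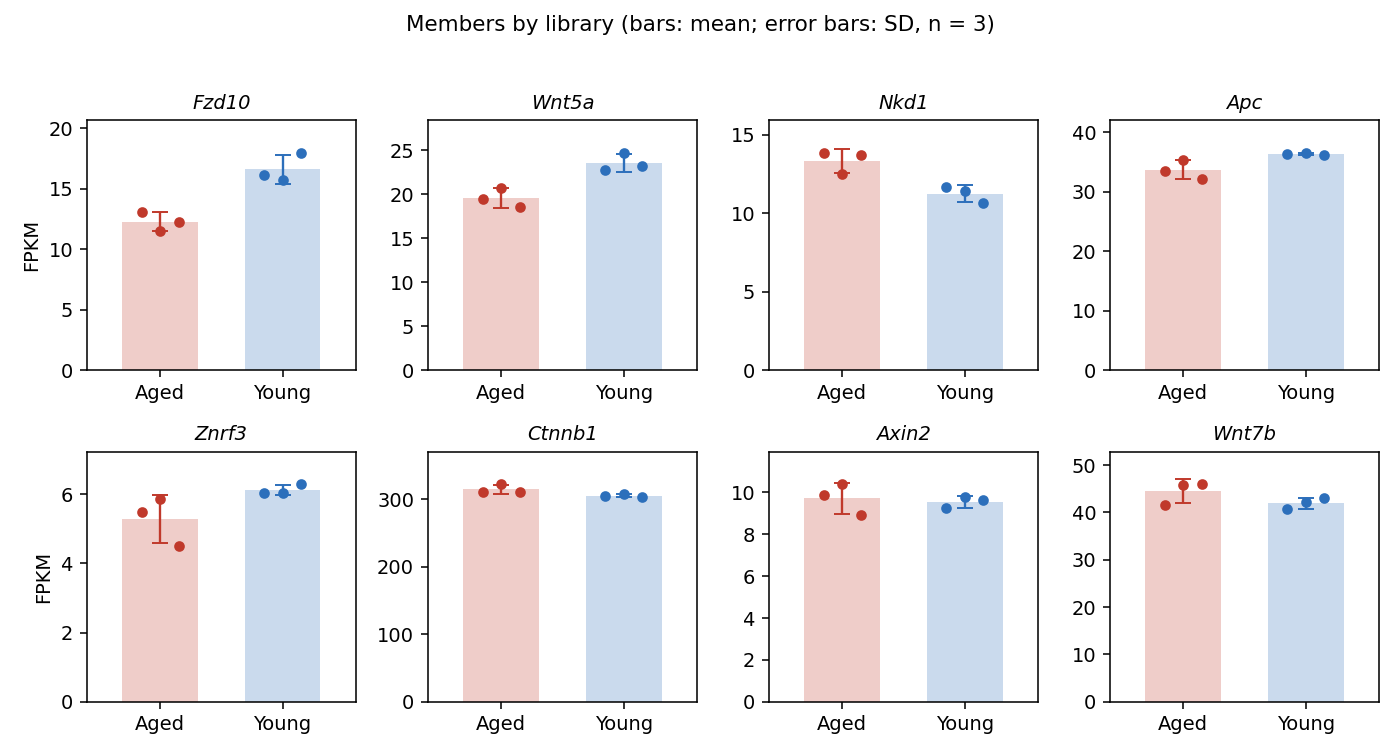
FPKM in each library (points) with the mean (bar, from 0) and SD (error bar, n = 3) for 8 members, aged left of young. Fzd10, Wnt5a, Apc and Znrf3 are lower in all 3 aged libraries and Nkd1 and Ctnnb1 higher, while Axin2 and Wnt7b overlap between the ages.

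Of the nuclear effectors, the TCF factors were present and Lef1 was nearly absent. Tcf7l1, mostly a repressor of Wnt targets, had 6.70, 7.18 and 7.13 FPKM in aged libraries, against 5.43, 7.03 and 6.14 FPKM in young libraries, and the ranges overlapped (log2 change 0.16, limma adjusted p = 0.591). Tcf7l2 had means of 5.35 FPKM in aged and 5.11 FPKM in young libraries, and Tcf7 had means of 2.28 FPKM in aged and 2.63 FPKM in young libraries. Lef1, both an effector and a target, had 0.24, 0.08 and 0.24 FPKM in aged libraries, against 0.25, 0.16 and 0.05 FPKM in young libraries, about 0.83 to 4.13 estimated reads. Sp5, a repressor induced by beta-catenin, had 0, 0.18 and 0.35 FPKM in aged libraries, against 0.18, 0.17 and 0.17 FPKM in young libraries, at most about 3.9 estimated reads. Neither could be compared at this depth.

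For most members the data bound the change of FPKM + 1 closely. On that scale, the 95% interval lay within a 1.5-fold change in either direction for 31 of 32 members. It lay within a 1.25-fold change for 15 of them. Among all genes tested, 92.7% had an interval within a 1.5-fold change on the same scale. Low genes appear to change less on it, so the bound is wider in FPKM for members of few FPKM.

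Outside the members, 83 of 85 listed genes of the pathway were in the tables and 68 were tested. Of these, 1 passed limma, where 0.722% of all genes tested passed. An unadjusted p under 0.05 was found for 9 (13.2%), with 4 higher and 5 lower in aged libraries, a share near the 11.9% of all genes tested. The median log2 change was -0.0015. The called gene was Ccnd1, the cyclin D1 gene and a known target of beta-catenin, with means of 594.0 ± 4.25 FPKM in aged and 654.6 ± 3.69 FPKM in young libraries (SD, n = 3 each; limma adjusted p = 0.0307). That call was lost without limma's trend (adjusted p = 0.310), without a filter (0.0941), with a replicate block (0.163) and without any 1 of 5 libraries (up to 0.156), with only the fit without the second aged library keeping it. None of the 4 secretion genes had an unadjusted p under 0.05, and neither did any of 23 genes of the cytoplasmic relay. Wls, which carries Wnt proteins to the cell surface, had means of 28.7 FPKM in aged and 28.9 FPKM in young libraries.

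The secreted and membrane regulators outside the members held 5 of the 9 genes with an unadjusted p under 0.05, out of 6 tested. Of all genes tested, 11.9% lay under that limit. The same 5 did not overlap between the ages, where 17.6% of all genes tested did not. Of the 6, 0 passed limma at an adjusted p under 0.05. This list is 1 of 6, was made with earlier results of these data known and was singled out after its count was seen, so the count is a description. Shisa3 and Shisa2, of a family known in frog embryos to hold Frizzled receptors inside the cell, were both lower in aged libraries. Shisa3 had 1.18, 1.28 and 1.62 FPKM in aged libraries, against 2.85, 2.98 and 2.38 FPKM in young libraries, with no overlap (log2 change -0.66 ± 0.13 (SE); limma unadjusted p = 0.000846, adjusted p = 0.0725). Shisa2 had means of 1.07 FPKM in aged and 1.66 FPKM in young libraries (limma adjusted p = 0.362). Kremen1, a receptor of Dickkopf proteins, had means of 12.5 FPKM in aged and 14.6 FPKM in young libraries (limma adjusted p = 0.210). The secreted antagonist Draxin had means of 3.24 FPKM in aged and 2.41 FPKM in young libraries (0.323), and Igfbp4 had means of 286.7 FPKM in aged and 272.6 FPKM in young libraries (0.378, limma adjusted p). The sixth tested gene, Frzb, which encodes the third Sfrp protein, had means of 1.52 FPKM in aged and 1.62 FPKM in young libraries and overlapped.

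The remaining genes with an unadjusted p under 0.05 were Ptk7, Tle1 and Tnfrsf19. Ptk7, a receptor-like protein of planar cell polarity, had means of 25.2 FPKM in aged and 28.4 FPKM in young libraries (limma adjusted p = 0.281). Tle1, a co-repressor that binds TCF factors, had 11.99, 12.1 and 11.99 FPKM in aged libraries, against 8.25, 10.2 and 9.87 FPKM in young libraries (limma adjusted p = 0.161). Tnfrsf19, a target gene of the pathway, had means of 23.6 FPKM in aged and 21.2 FPKM in young libraries (limma adjusted p = 0.297). None of these 3 passed.

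Summed levels of the markers of 3 other kinds of cells did not overlap between the ages, and their part in the values above was not tested. The 6 fibroblast and meningeal markers in the tables summed to 4.85 to 6.34 FPKM in aged and 2.04 to 2.34 FPKM in young libraries. Col1a1, a fibrillar collagen gene among them, rose in aged libraries by more than any tested Wnt member changed. It had 2.04, 2.53 and 2.81 FPKM in aged libraries, against 0.54, 0.31 and 0.42 FPKM in young libraries (log2 change 1.28 ± 0.15 (SE); limma adjusted p = 0.0107). Its partner chain Col1a2, under the filter, had 0.54, 0.61 and 0.75 FPKM in aged libraries, against 0, 0.04 and 0 FPKM in young libraries, and Dcn was at 0 in 5 of the 6 libraries. Pdgfra, from the same list, made up most of the young sum. It had means of 2.25 FPKM in aged and 1.53 FPKM in young libraries, without overlap (limma adjusted p = 0.309). The 6 pericyte and smooth muscle markers summed to 3.67 to 5.11 FPKM in aged and 5.63 to 6.83 FPKM in young libraries, with Pdgfrb and Rgs5 at 0.1 FPKM or less in each, and neither of the 2 tested had an unadjusted p under 0.05. The 8 neuroblast and neuron markers summed to 20.9 to 25.7 FPKM in aged and 17.6 to 19.8 FPKM in young libraries. Tubb3 was the largest part of that sum, with means of 12.1 FPKM in aged and 9.37 FPKM in young libraries. Dcx, Rbfox3, Syt1 and Stmn2 lay under the filter, at 0.86 FPKM or less in each library. Of 4 tested, 0 passed limma at an adjusted p under 0.05. At an unadjusted p under 0.05 Tubb3 and Snap25 were higher and Dlx2 lower in aged libraries, where 11.9% of all genes tested lay under that limit. Summed levels overlapped between the ages for 9 endothelial markers (3.57 to 3.96 FPKM in aged and 2.81 to 4.26 FPKM in young libraries) and 4 microglial markers (3.06 to 3.5 FPKM in aged and 2.88 to 4.19 FPKM in young libraries). They also overlapped for 9 ependymal and choroid plexus markers (26.2 to 31.1 FPKM in aged and 22.9 to 27.3 FPKM in young libraries) and 8 oligodendrocyte markers (85.4 to 91.4 FPKM in aged and 80.1 to 87.4 FPKM in young libraries). The same held for 6 astrocyte markers (464.7 to 476.1 FPKM in aged and 471.8 to 478.1 FPKM in young libraries), a sum made up mostly of Aldh1l1. Single astrocyte markers went in both directions: 5 of the 6 did not overlap, where 17.6% of all genes tested did not. Aldoc, Gfap and S100b were higher and Gja1 and Aldh1l1 lower in aged libraries. None of the 6 passed, with Aldoc nearest (means of 97.7 FPKM in aged and 81.8 FPKM in young libraries, limma adjusted p = 0.0601). Other overlapping sums also held single markers without overlap. Tested and higher in aged libraries were Egfl7 (endothelial), Enpp2 and Rsph1 (ependymal and choroid plexus) and Cnp and Gpr17 (oligodendrocyte). Cnp made up most of the oligodendrocyte sum. Flt1 (endothelial) and Mbp (oligodendrocyte), under the filter, were lower. None of the tested ones passed.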

How the data were processed

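Total RNA of cultured neural stem cells was depleted of rRNA and made into MGI libraries, per the labels' protocols. The authors deposited a single FPKM per gene and library, with 2 decimals, per the file headers. The submitters' processing notes name TopHat, Cuffdiff and mm10 and give neither version nor role. The annotation, strand setting and normalization between libraries are not given in the sources used here.

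FPKM are not counts, so no count test was run. The test was limma 3.58.1 in R 4.3.3 (eBayes with a trend, two-sided, all 6 libraries, no covariates) on log2(FPKM + 1), a scale on which low genes appear to change less than they do. It was fitted over the 11912 genes whose mean reached 1 FPKM, with Benjamini-Hochberg adjustment over all of them and a threshold of 0.05. A run on simulated data with an assumed spread between libraries checked only the code. That run does not bear on the changes reported here. Members and lists were chosen with earlier results of these data known. Members given library by library were tested members with an unadjusted p under 0.05 or no overlap, the most abundant of each role, and Axin2, Lef1, Nkd1 and Ctnnb1. Some other members, such as Wnt2, Lgr5, Fzd8, Dkk2 and Sp5, were given so after their values were seen.

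Estimated reads come from the steps between low values of genes with 1 transcript. Of values between 3.5 and 10.5 estimated reads, 54.6% to 58.7% per library were within 0.15 of a whole read, where chance would give 30.0%. They are approximate for genes with several transcripts. Coordinates, matched by Entrez identifier for all 50 members, are from RefSeq (GRCm38.p6, that is mm10), counted from 1, and exon overlaps are from GENCODE M21. Exons of 11 members overlap another gene: Axin2, Ctnnb1, Fzd5, Fzd6, Lef1, Notum, Sfrp2, Tcf7l1, Wnt11, Wnt5a and Wnt7b. Alternatives covered the pseudocount, the filter, the scaling, limma's trend and robust options, a replicate block and leaving out each library. Of the list of neural stem and progenitor cell markers, 1 gene is not reported here.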

Additional observations from a re-analysis of the deposited data

How the results depend on the processing

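The count of members past the adjusted threshold was 0, and it was 1 (Fzd10) with a pseudocount of 0.1 (adjusted p = 0.0479), when only genes whose mean reached 5 FPKM were tested (0.0392), after rescaling to TPM (0.0346) and with limma's robust option (0.0420). It was 0 under the other 6 settings and also 0 without any 1 of the 6 libraries. Equal replicate numbers did not pair the libraries (correlations of their deviations across genes 0.0080, -0.072 and 0.11), and a replicate block left the count of members at 0 and gave 22 over all genes, where the fit without it gave 86. The members' median log2 change ran from -0.022 to 0.024 with 1 library left out and kept within the spread between libraries in every setting run. Apc no longer lay under an unadjusted limma p of 0.05 in 7 of the 10 settings (limma p 0.0362 to 0.0774 over all 10) and in 5 of the 6 fits without 1 library (0.0187 to 0.157). Signs turned for Fzd3 after centring on the median (0.00096) and with 1 library left out (-0.055 to 0.018), and for Fzd8 (-0.062 to 0.29, negative without the third young library), Axin2 (-0.023 to 0.076), Sfrp2 (-0.16 to 0.040) and Sfrp4 (-0.099 to 0.047), all 4 with 1 library left out. Wnt2, Sp5, Lef1 and Dkk2 lay under the filter and were not followed over the settings. The call of Col1a1 was lost with a replicate block (adjusted p = 0.0643) and was kept without any 1 library (0.0287 to 0.0427). Fzd10 stayed between -0.45 and -0.35, Wnt5a between -0.29 and -0.22 and Nkd1 between 0.19 and 0.27 with 1 library left out. Depth limits the 18 members under the filter, most of which rest on a few reads, and changes of low genes are understated on this scale. With 3 libraries per age, small differences cannot be seen. The printed intervals are for single genes and unadjusted, and do not mark what the adjusted threshold can detect. In the main fit, those of Fzd10, Wnt5a and Nkd1 lay clear of 0 and these genes still did not pass.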
